A study of Mus musculus with 12 samples.

Results

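This account covers 10 genes of innate microbial sensing in mouse bone marrow: the Toll-like receptor genes Tlr1, Tlr2, Tlr4, Tlr6, Tlr7, Tlr8, Tlr9 and Tlr13, the co-receptor gene Cd14 and the adaptor gene Myd88. They were taken by name from the deposited expression table, whose identifiers were matched to GENCODE vM21 symbols, and are 10 of its 21853 genes. Each was found once, each had at least 1 FPKM in all 12 libraries, and all 10 were among the 10994 genes tested. FPKM is a level per length of transcript and scaled to the number of mapped fragments of the library.

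Whole bone marrow of B6 mice was sequenced in 4 groups of 3 libraries. Control mice were not irradiated. TBI mice had total body irradiation of 5 Gy with gamma rays at 0.66 Gy/min and were then gavaged with olive oil (100 µL) as vehicle. TBI+DEIX mice had the same irradiation and then oral DEIX, 25 mg/kg daily over 14 days. DEIX mice had DEIX, 25 mg/kg over 14 days, without irradiation. The series title names the compound deinoxanthin, a carotenoid pigment of Deinococcus bacteria. Marrow was taken 14 days after irradiation. No vehicle or gavage is stated for control mice, so effects of dosing and of DEIX cannot be told apart in comparisons with control. The labels do not say whether each library came from 1 mouse, and the p-values then measure only the spread between these libraries. Whole marrow mixes cell types, so more cells of a type and more RNA per cell cannot be told apart.

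Toll-like receptors are membrane proteins that bind conserved parts of microbes and start inflammatory signalling. TLR1, TLR2, TLR4 and TLR6 sit at the cell surface and bind bacterial lipoproteins or lipopolysaccharide, with CD14 handing ligands over, while TLR7, TLR8, TLR9 and TLR13 sit in endosomes and bind nucleic acids. All of those named here signal through the adaptor MYD88, which recruits IRAK kinases and leads to NF-kB. In marrow they are known from monocytes, macrophages and neutrophils, and TLR7 and TLR9 also from B cells and plasmacytoid dendritic cells.

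The surface receptor genes and Cd14 were at their highest in the DEIX-treated groups, with mean Cd14 levels of 17.5 ± 6.37 FPKM in TBI+DEIX and 11.9 ± 1.88 in DEIX, against 3.88 ± 0.401 in control and 4.12 ± 0.933 in TBI (SD, n = 3). Tlr9 alone of the 10 was lower than control on average in each of the other groups. Against control, 0 of the 10 genes were called in TBI, 5 in DEIX and 7 in TBI+DEIX, beside 3.99%, 7.24% and 30.0% of all genes tested.

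RefSeq start-site sequence was searched for 7 of the 10 genes, all in build GRCm38.p6. Cd14 was left out of this search by choice, and no such sequence was held for Tlr4 and Tlr7. The stretches printed here lie before the annotated GENCODE gene, on the strand of the gene, and are shown because Tlr1 and Tlr6, which lie close together on chromosome 5, had similar patterns, because Tlr13 rose with DEIX, and because Tlr9 moved the other way. Capitals mark matches to GAGGAA, the core of the PU box bound by the myeloid factor PU.1, on either strand, and in Tlr2 a match to a form of the NF-kB site (GGG, any 2 bases, TT, any base, CC). The stretches are chr5:64933564-64933808 (minus strand) for Tlr1, chr5:64960098-64960298 (minus) for Tlr6, chr3:83841768-83841858 (minus) for Tlr2, chrX:106143025-106143203 (plus) for Tlr13 and chr9:106222348-106222597 (plus) for Tlr9.
Tlr1: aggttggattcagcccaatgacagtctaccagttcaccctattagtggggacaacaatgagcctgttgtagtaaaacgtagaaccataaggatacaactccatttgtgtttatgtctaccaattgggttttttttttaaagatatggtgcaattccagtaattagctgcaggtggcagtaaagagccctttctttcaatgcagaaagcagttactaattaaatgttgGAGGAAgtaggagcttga
Tlr6: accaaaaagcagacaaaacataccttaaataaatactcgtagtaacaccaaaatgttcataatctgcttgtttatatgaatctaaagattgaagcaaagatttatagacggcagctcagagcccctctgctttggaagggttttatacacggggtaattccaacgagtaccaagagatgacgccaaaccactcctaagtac
Tlr2: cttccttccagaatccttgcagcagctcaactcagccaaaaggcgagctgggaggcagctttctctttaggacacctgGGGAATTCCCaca
Tlr13: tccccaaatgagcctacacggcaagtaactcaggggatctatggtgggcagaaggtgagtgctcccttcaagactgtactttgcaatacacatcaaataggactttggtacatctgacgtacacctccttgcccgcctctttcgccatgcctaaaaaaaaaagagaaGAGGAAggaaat
Tlr9: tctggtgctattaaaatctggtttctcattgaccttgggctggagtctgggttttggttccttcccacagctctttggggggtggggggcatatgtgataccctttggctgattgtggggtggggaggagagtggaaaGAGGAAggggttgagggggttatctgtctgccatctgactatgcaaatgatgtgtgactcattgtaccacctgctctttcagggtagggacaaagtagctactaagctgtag
In the 250 bases before the RefSeq start, GAGGAA was found on either strand for Tlr1, Tlr8, Tlr9 and Tlr13, 4 of the 7 genes, beside 23.2% of 32817 such windows of all genes. The GAGGAA of Tlr1 began 23 bases before the start, that of Tlr13 83 and that of Tlr9 112. The NF-kB form was found in Tlr2 only among the 7, 172 bases before the start and on both strands since it is a palindrome, beside 4.11% of all windows. Myd88 had a match to a form of the interferon-stimulated response element (GAAA, any 2 bases, GAAA) beside 2.97% of all windows, and Tlr8 one to TTGCNNAA, a form of the C/EBP site, beside 9.57%. A match describes these letters and no binding was measured. The motifs were chosen after the sequences had been seen.

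Depth was not stated, but the FPKM that 1 read adds to a gene could be read from low values of genes with a single transcript. This gave about 23600000 to 58300000 reads per library, fewest in TBI+DEIX replicate 1. By the same estimate, the thinnest values of the 10 genes rested on 128 reads (Tlr9 in TBI+DEIX replicate 1) and 131 reads (Cd14 in control replicate 2), a counting error of 8.8% and 8.7%. TBI+DEIX replicate 1 stood apart: the summed FPKM of 12 monocyte and macrophage markers was 837 in it, beside 2013 and 2668 in the other TBI+DEIX libraries and 1303 to 2519 in the other groups. Ly6c2 weighed most in this sum, at 545 FPKM in replicate 1 and 1613 and 2218 in the other TBI+DEIX libraries. In TBI+DEIX replicate 1 Tlr2, Tlr4, Tlr6, Tlr8, Tlr9 and Tlr13 were the lowest of their group and Cd14 and Tlr7 the highest. Calls lost or gained without that library are given with their results.

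**Figure D1:**
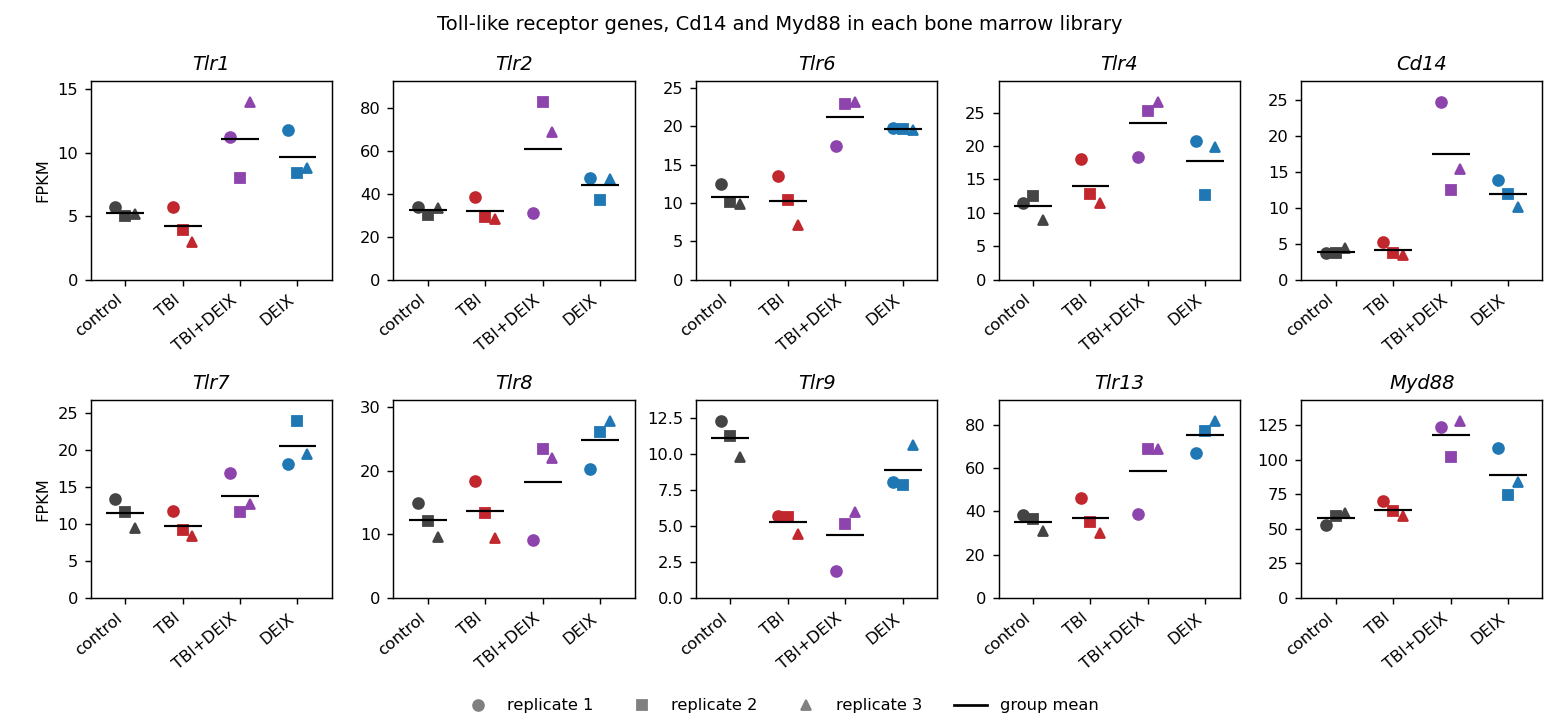
FPKM of each gene (y axis from 0, linear) in each of the 12 libraries, by group (x axis); shapes are replicates and the black line is the group mean. Cd14 sits between 3.46 and 5.19 in all control and TBI libraries and between 10.05 and 24.6 in all libraries with DEIX, while Tlr9 is highest in control.

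Levels in control differed widely between genes on the FPKM scale. Myd88 was highest, at 57.8 ± 4.52 FPKM (SD, n = 3), and its libraries did not overlap those of any other of the 10. Tlr13, which in mice binds bacterial ribosomal RNA, and Tlr2 followed at 35.1 ± 3.78 and 32.5 ± 2.00, overlapping each other. Tlr8, Tlr7, Tlr9, Tlr4 and Tlr6 lay between 12.2 and 10.8 on average, each overlapping its neighbour in this order. Tlr1 (5.28 ± 0.394) and then Cd14 (3.88 ± 0.401) were lowest, each clear of its neighbour. By mean, Cd14 was also lowest in TBI, where it overlapped Tlr1, but the seventh of the 10 in TBI+DEIX and the eighth in DEIX. Tlr9 had the lowest mean in both of those groups, and in DEIX it overlapped Tlr1.

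DEIX alone was compared with control to ask what the compound changed in unirradiated marrow. Cd14, Tlr13, Tlr7, Tlr6 and Myd88 rose, by 1.52 to 2.63 times on the scale of FPKM + 1, and none of the 10 fell, beside 2.72% of all genes called lower. Tlr1, Tlr2, Tlr4 and Tlr8 were also above control in all libraries but did not pass the test. Called higher were thus 5 of 10 genes, beside 4.52% of all genes tested, and the libraries lay wholly above control for 9 of 10, beside 23.4% of all genes. The median log2 change was 0.77 over the 10 genes and 0.016 over all genes tested. Tests were limma fits of log2(FPKM + 1) over all 12 libraries, with Benjamini-Hochberg adjustment over all genes tested and a threshold of 0.05.

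Cd14 (ENSMUSG00000051439.7, chromosome 18, 36725067 to 36726798, minus strand), the co-receptor for lipopolysaccharide, was at 3.67, 3.64 and 4.35 FPKM in control and at 13.8, 11.9 and 10.05 in DEIX. The groups did not overlap, and every DEIX library was above every control library. The fitted log2 change was 1.40 (SE 0.22), with an adjusted p of 0.00719 by limma. It passed the test in all 15 alternatives, which left out single libraries or changed the scale, filter or model.

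Among surface receptors, Tlr6 (ENSMUSG00000051498.6, chromosome 5, 64952031 to 64960097, minus strand), which pairs with TLR2 for diacylated lipopeptides, was at 12.5, 10.2 and 9.84 FPKM in control and 19.8, 19.6 and 19.5 in DEIX. Its DEIX libraries had an SD of 0.121 FPKM, and all were above control. The log2 change was 0.81 (SE 0.19, adjusted p 0.0303 by limma). Tlr1 (ENSMUSG00000044827.10, chromosome 5, 64924679 to 64933563, minus strand), the partner of TLR2 for triacylated lipopeptides, was at 5.72, 4.98 and 5.13 in control and 11.8, 8.41 and 8.76 in DEIX. Its libraries did not overlap, but it missed the threshold, with a log2 change of 0.75 (SE 0.22, adjusted p 0.0623 by limma). How reads were shared between Tlr1 and Tlr6, which are close in sequence, is not given in the sources used here.

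Tlr2 and Tlr4 differed less from control in DEIX. Tlr2 (ENSMUSG00000027995.10, chromosome 3, 83836272 to 83841767, minus strand) was at 33.7, 30.2 and 33.6 FPKM in control and 47.6, 37.2 and 47.0 in DEIX, a log2 change of 0.42 (SE 0.29, adjusted p 0.403 by limma). Tlr4 (ENSMUSG00000039005.13, chromosome 4, 66827584 to 66930284, plus strand), the receptor for lipopolysaccharide, was at 11.4, 12.6 and 8.97 in control and 20.7, 12.6 and 19.8 in DEIX. DEIX replicate 2 was above the highest control library by less than the rounding shown, so the separation rests on 2 of 3 libraries. Its log2 change was 0.62 (SE 0.22, adjusted p 0.113 by limma).

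The endosomal receptors Tlr13, Tlr7 and Tlr8 had their highest group mean in DEIX. Tlr13 (ENSMUSG00000033777.4, chromosome X, 106143204 to 106160493, plus strand) was at 38.1, 36.4 and 30.8 FPKM in control and 67.0, 77.02 and 81.7 in DEIX, a log2 change of 1.08 (SE 0.22, adjusted p 0.0184 by limma). Tlr7 (ENSMUSG00000044583.13, chromosome X, 167304929 to 167330558, minus strand), a sensor of single-stranded RNA, was at 13.4, 11.7 and 9.49 in control and 18.1, 23.9 and 19.5 in DEIX, a log2 change of 0.78 (SE 0.18, adjusted p 0.0273 by limma). Both genes had no DEIX library as low as any control library. Tlr8 (ENSMUSG00000040522.5, chromosome X, 167242696 to 167264329, minus strand), next to Tlr7 and like it a sensor of RNA, was at 15.0, 12.1 and 9.55 in control and 20.3, 26.1 and 27.8 in DEIX. These did not overlap either, but Tlr8 missed the threshold at a log2 change of 0.97 (SE 0.33, adjusted p 0.0948 by limma).

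Myd88 (ENSMUSG00000032508.8, chromosome 9, 119335934 to 119341411, minus strand), the shared adaptor, was at 52.8, 59.0 and 61.6 FPKM in control and 108, 74.4 and 84.2 in DEIX. All DEIX libraries were above all control libraries, with replicate 1 the highest. The log2 change was 0.60 (SE 0.15, adjusted p 0.0344 by limma). Tlr9 (ENSMUSG00000045322.10, chromosome 9, 106222598 to 106226883, plus strand), the sensor of unmethylated CpG DNA, was the exception: it was at 12.3, 11.2 and 9.78 in control and 8.05, 7.87 and 10.6 in DEIX, and the groups overlapped.

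These calls in DEIX were fragile apart from Cd14. Leaving out any 1 control library, or DEIX replicate 1 or 3, left Cd14 as the sole gene called of the 10, while without DEIX replicate 2 there were 5, with Tlr4 gained and Tlr7 lost. With each library rescaled to the same sum (TPM scale), 2 of the 10 were called, Cd14 and Tlr13, and with only control and DEIX in the fit 8 were. The share of all genes called moved too: from 7.24% it went to between 1.33% and 1.98% in the alternatives that left Cd14 alone, to 8.53% without DEIX replicate 2, to 2.57% on the TPM scale and to 18.7% with only these groups. On the TPM scale the median change of all genes moved from 0.016 to -0.12 and the share of higher genes among those called from 62.4% to 19.1%.

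Of 12 markers of maturing neutrophils 2 were called higher in DEIX, Il1r2 and Cd177, beside 4.52% of all genes, and 0 lower. The log2 change was above 0 for 11 of the 12, the libraries lay wholly above control for 8, beside 23.4% of all genes, and the median log2 change was 0.60. The list's summed FPKM was 17655 to 24863 in control and 20679 to 26292 in DEIX, which overlap. Retnlg, Camp and Ltf weighed most in it, with means of 7863, 7105 and 2818 FPKM in control and 8811, 5997 and 4413 in DEIX. Of 12 monocyte and macrophage markers 1 was called higher, F13a1, and 2 lower, C1qa and C1qb (Cd177, C1qa and C1qb were named after their values were seen), with sums of 1964 to 2021 in control and 2077 to 2519 in DEIX. The part of these cells in the rise of the receptor genes was not tested.

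**Figure D2:**
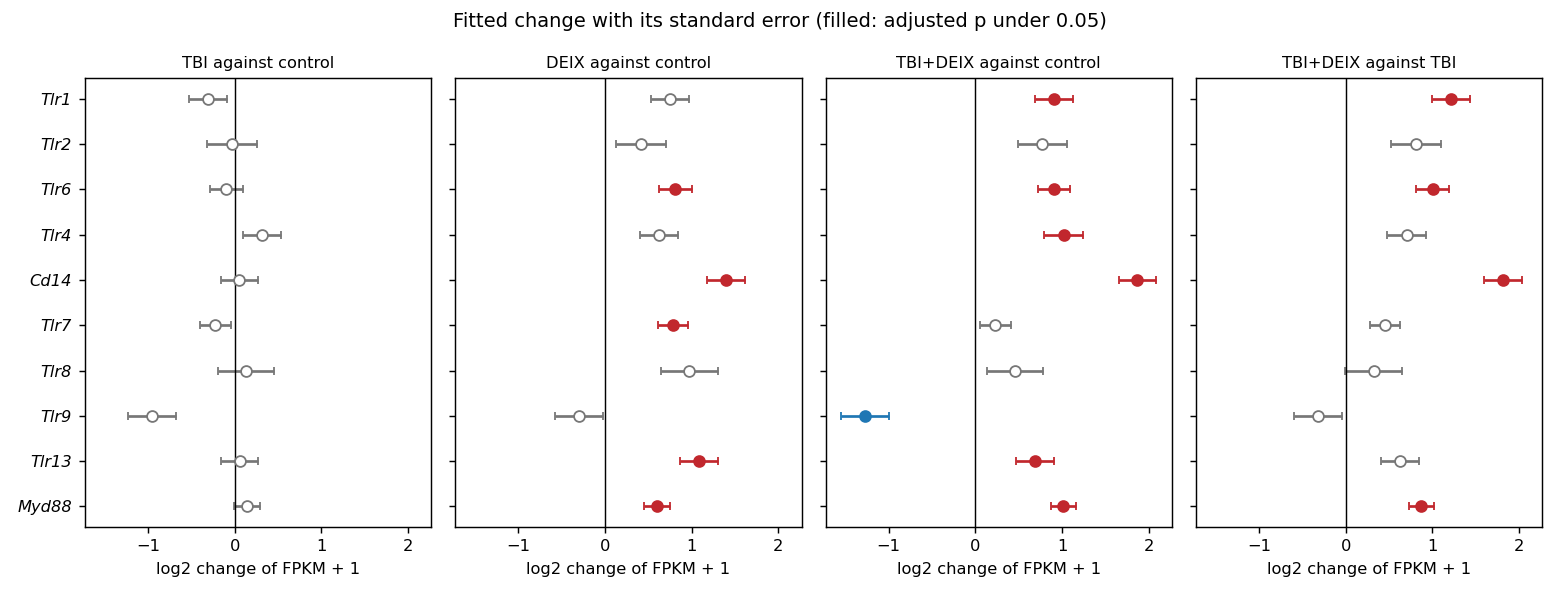
Fitted log2 change of FPKM + 1 (x axis) with its standard error for each gene (rows) in the 4 comparisons; filled red points were called higher and the filled blue point lower at an adjusted p under 0.05. TBI against control has no filled point, and Cd14 lies farthest right in each of the other panels.

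Irradiation with vehicle was compared with control to ask what remained 14 days after TBI. None of the 10 genes was called by limma, 1 had an unadjusted p under 0.05, and the median log2 change was 0.012, beside 0.045 over all genes tested, of which 3.99% were called. Cd14 was at 5.19, 3.71 and 3.46 FPKM in TBI, Myd88 at 69.9, 62.6 and 59.1, Tlr2 at 38.5, 29.1 and 28.4, and Tlr13 at 46.1, 35.0 and 29.9. All 4 genes overlapped control. Tlr9 was the single gene of the 10 whose libraries did not overlap, at 5.69, 5.63 and 4.46 FPKM in TBI against 9.78 to 12.3 in control, beside 16.3% of all genes whose TBI libraries lay wholly below. Its log2 change was -0.95 (SE 0.27) with an adjusted p of 0.0874 by limma, and 0.00238 with only the control and TBI libraries in the fit, in which 12.9% of all genes were called.

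TBI+DEIX against control gave the most calls, 6 genes higher and 1 lower of 10. All genes tested were also called often in this comparison, 16.9% higher and 13.1% lower. Cd14 was at 24.6, 12.4 and 15.3 FPKM in TBI+DEIX, a log2 change of 1.87 (SE 0.22, adjusted p 0.000318 by limma). Myd88 was at 124, 102 and 128, with a log2 change of 1.01 (SE 0.15, adjusted p 0.000765 by limma). For both genes the lowest TBI+DEIX library was far above the highest control library.

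Tlr4, Tlr6 and Tlr1 rose as well in TBI+DEIX against control. Tlr4 was at 18.3, 25.3 and 26.5 FPKM, giving a log2 change of 1.02 (SE 0.22, adjusted p 0.00647 by limma). Tlr6 was at 17.5, 23.0 and 23.2, a log2 change of 0.90 (SE 0.19, adjusted p 0.00503), and Tlr1 at 11.2, 7.97 and 14.0, a log2 change of 0.91 (SE 0.22, adjusted p 0.0102). None of these libraries was as low as a control library, and all 3 genes, with Cd14, Myd88 and Tlr9, passed in all 15 alternatives. Tlr13 was at 38.9, 68.6 and 68.6 FPKM, with replicate 1 barely above the highest control library at 38.1. Its log2 change of 0.69 (SE 0.22, adjusted p 0.035 by limma) lost the call in 10 of 15 alternatives.

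Of the neutrophil markers in the same comparison, 6 of 12 were called higher, beside 16.9% of all genes, and 0 lower, with a median log2 change of 0.83 and sums of 13996 to 41121 in TBI+DEIX, lowest in replicate 1. Of the 12 monocyte and macrophage markers 1 was called higher and 1 lower. Of 10 erythroid markers 6 were called lower, beside 13.1% of all genes, with sums of 259 to 1291 in TBI+DEIX and 2589 to 4168 in control. The part of these cells in the receptor levels was not tested.

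Tlr2, Tlr7 and Tlr8 were not called in TBI+DEIX against control, and their libraries overlapped control. Tlr2 was at 30.9, 82.8 and 68.9 FPKM and Tlr8 at 9.11, 23.3 and 22.1, each with replicate 1 within or below control and the other libraries well above it. Without TBI+DEIX replicate 1, Tlr2 and Tlr8 were called higher too and the count was 9 of 10, beside 38.5% of all genes called in that fit. Tlr7 was at 16.9, 11.6 and 12.7 FPKM, with replicate 1 the highest.

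Tlr9 fell in TBI+DEIX, to 1.88, 5.16 and 5.99 FPKM against 9.78 to 12.3 in control, a log2 change of -1.27 (SE 0.27, adjusted p 0.00605 by limma). Replicate 1 was the lowest of all 12 libraries, and over the alternatives the change ran from -1.52 to -0.88, the latter without that library. Tlr12, an endosomal receptor of mouse plasmacytoid dendritic cells outside the 10 genes, fell too: it was at 2.94, 2.64 and 2.82 FPKM in control and 0.483, 0.706 and 0.451 in TBI+DEIX (log2 change -1.30, adjusted p 0.00012 by limma). Tlr12 also fell in TBI (-1.07, adjusted p 0.00094) and in DEIX (-0.82, adjusted p 0.00548).

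Markers of the lymphoid and dendritic cells known to express Tlr9 were lower in the same libraries. The summed FPKM of 10 plasmacytoid dendritic cell markers was 252 to 285 in control, 96.9 to 109 in DEIX, 67.0 to 96.9 in TBI and 25.7 to 71.4 in TBI+DEIX. Of those markers 10 were called lower in TBI+DEIX, 7 in TBI and 3 in DEIX, each against control, and 0 higher. Of all genes 13.1% were called lower in TBI+DEIX and 2.72% in DEIX, and 3.99% in either direction in TBI. Bst2 and Spib weighed most in the sum, at 85.9 and 83.2 FPKM on average in control. Siglech, a defining surface marker of these cells, was at 28.1, 26.5 and 25.3 FPKM in control and 13.8, 18.4 and 16.8 in DEIX. It was at 7.81, 8.69 and 10.4 in TBI and 2.43, 5.94 and 2.26 in TBI+DEIX. The sum of 12 B lineage markers was 520 to 652 in control, 77.2 to 118 in DEIX, 28.8 to 348 in TBI and 7.87 to 194 in TBI+DEIX. Of these 12 markers 11 were called lower in TBI+DEIX, 3 in TBI and 3 in DEIX, beside the same shares of all genes, and 0 higher. The DEIX sums of both lists lay wholly below control, while Tlr9 in DEIX overlapped control. The part of either cell type in the level of Tlr9 was not tested.

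**Figure D3:**
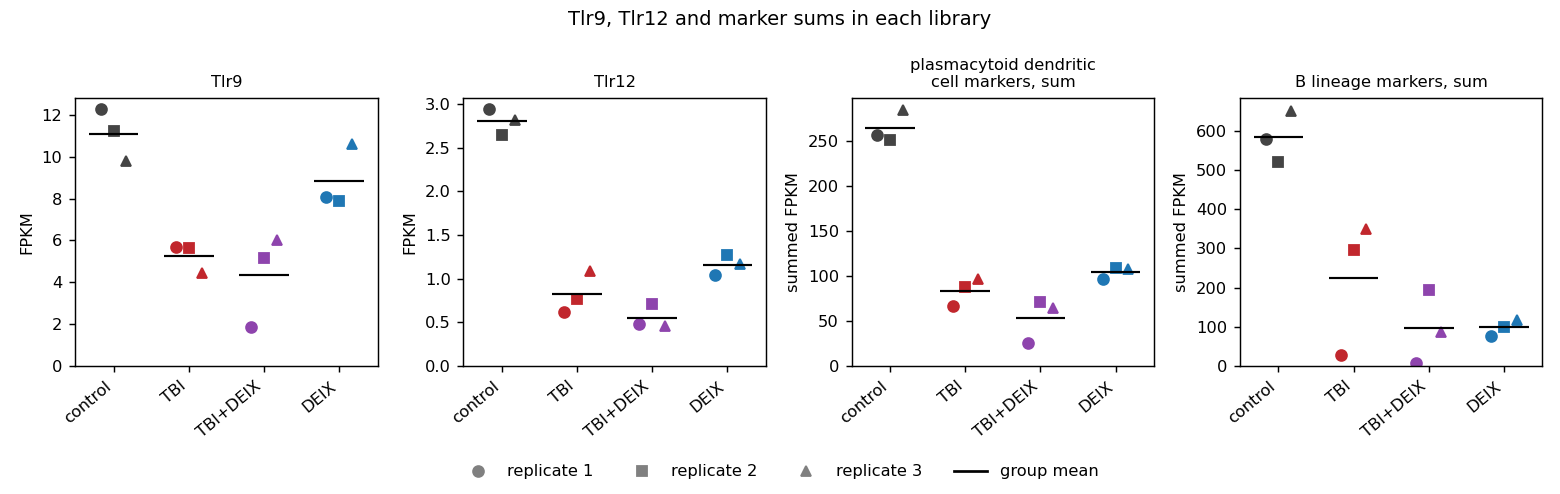
FPKM of Tlr9 and Tlr12 and summed FPKM of 10 plasmacytoid dendritic cell markers and 12 B lineage markers (y axes from 0, linear) in each library by group; shapes are replicates and lines are group means. All 4 panels have control highest, and Tlr9 in DEIX (7.87 to 10.6 FPKM) lies nearer to control than the marker sums do.

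Among irradiated mice, those given DEIX were set against those given vehicle. Cd14, Tlr1, Tlr6 and Myd88 rose and none of the 10 fell: 4 of 10 were called higher, beside 4.69% of all genes tested called higher and 3.41% lower, and the median log2 change was 0.75, beside 0.0032 over all genes. Cd14 had the largest log2 change of the 10, 1.81 (SE 0.22, adjusted p 0.00651 by limma), from 3.46 to 5.19 FPKM in TBI to 12.4 to 24.6. Tlr1 was at 5.72, 3.89 and 2.97 in TBI, below all 3 TBI+DEIX libraries, a log2 change of 1.22 (SE 0.22, adjusted p 0.0172). Tlr6 was at 13.5, 10.4 and 7.12 in TBI, a log2 change of 1.00 (SE 0.19, adjusted p 0.0193). Myd88 changed by 0.87 (SE 0.15, adjusted p 0.016).

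The remaining genes did not pass. Tlr4 was at 18.0, 12.8 and 11.4 FPKM in TBI, with the highest just under the lowest TBI+DEIX library at 18.3, a log2 change of 0.70 (SE 0.22, adjusted p 0.072 by limma). Without TBI+DEIX replicate 1 it was called (0.86, adjusted p 0.0217). The TBI and TBI+DEIX libraries of Tlr2, Tlr7, Tlr8, Tlr9 and Tlr13 overlapped. With only the 6 libraries of these groups in the fit, 0 of the 10 genes and 0% of all genes were called by limma. The limma adjusted p was 0.144 for Cd14, Tlr1, Tlr6 and Myd88, and 6 of the 10 had an unadjusted p under 0.05. Without TBI replicate 3 the count was 0 and without TBI+DEIX replicate 3 it was 1 (Cd14), while without TBI+DEIX replicate 1 it was 8, with Tlr2, Tlr4, Tlr8 and Tlr13 gained, beside 25.8% of all genes called in that fit and 0.0455% and 0.464% in the fits with 0 and 1. On the TPM scale it was 2, Cd14 and Tlr1, beside 1.43% of all genes, and the median of all genes moved to -0.12. Of the 12 neutrophil markers 1 and of the 12 monocyte and macrophage markers 2 were called higher here, and 0 lower. Erythroid markers were lower: their sums were 259 to 1291 in TBI+DEIX and 1453 to 5975 in TBI, 3 of 10 were called lower, and their median log2 change was -2.52, beside 0.0032 over all genes. Of 10 plasmacytoid dendritic cell markers 2 were called lower. The part of these cells was not tested.

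Whether DEIX acted differently in irradiated and unirradiated mice was tested by the interaction, the DEIX difference in irradiated mice minus that in unirradiated mice. None of the 10 genes was called by limma and 0 had an unadjusted p under 0.05, beside 0.200% of all genes called. The fitted interaction was highest for Tlr1, at 0.46 (SE 0.31), and lowest for Tlr8, at -0.65 (SE 0.46), so differences of this size lie within about 2 standard errors. Tlr7 was at 18.1 to 23.9 FPKM in DEIX and 11.6 to 16.9 in TBI+DEIX, and its interaction was -0.33 (SE 0.25, adjusted p 0.91 by limma).

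Likeness between the genes over the 12 libraries was described by Pearson r of log2(FPKM + 1). These values share the same libraries and groups and are given without a test. Cd14 and Myd88 were most alike, at 0.94, as were Tlr8 and Tlr13, at 0.94, and Tlr1 and Tlr6, at 0.912. Tlr9 was the least alike to each of the other 9, with its highest r at 0.32, to Tlr8, and its lowest at -0.519, to Myd88. The nearest genes given here and below were sought among tested genes without a predicted-gene or clone symbol. Among those, the pattern of Cd14 was most like that of Il1r2 (0.986), the decoy receptor for interleukin 1, and Socs3 (0.982), a cytokine signalling inhibitor. The level of Il1r2 was 33.6 to 36.6 FPKM in control and 33.0 to 47.8 in TBI, but 103 to 146 in DEIX and 118 to 349 in TBI+DEIX, with TBI+DEIX replicate 1 the highest, as for Cd14.

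Tlr4 was most like Tirap (0.976), which encodes the bridging adaptor between TLR4 and MYD88, and Rap2c (0.975). Myd88 was most like Mvp (0.989), Tlr6 most like Ggt5 (0.984), Tlr2 most like Smpd5 (0.979), Tlr1 most like P2ry12 (0.955) and Tlr7 most like St3gal1 (0.941). Tlr13 and Tlr8 had Sycp2 among their 2 nearest genes (0.971 and 0.956). Tlr9 was nearest to Gstt3 (0.982) and Gbp3 (0.972), the latter an interferon-inducible GTPase.

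Downstream of the receptors, 22 adaptor and kinase genes were tested. In TBI+DEIX 8 of them rose against control and 0 fell, beside 16.9% of all genes called higher. In DEIX 2 rose and 0 fell, beside 4.52%, and in TBI 0 were called. Their median log2 changes were 0.28, 0.21 and 0.14 in that order, beside 0.020, 0.016 and 0.045 over all genes. Those with the smallest adjusted p were Map3k8, Tirap, Irak4, Ikbke and Traf3, of which Map3k8 lost its call in 1 of 15 alternatives and Ikbke and Traf3 in 3 of 15. Map3k8, a kinase between NF-kB and ERK signalling, was at 5.28, 4.36 and 4.88 FPKM in control, 11.4, 8.29 and 8.42 in TBI+DEIX and 8.25, 7.42 and 8.09 in DEIX. It rose in both (log2 change 0.82, adjusted p 0.00128, and 0.61, adjusted p 0.0213, by limma), as did Irak4, the first kinase recruited by MYD88 (0.76, adjusted p 0.00941, and 0.71, adjusted p 0.0383). The DEIX calls were lost in 7 of 15 alternatives for Map3k8 and in 9 of 15 for Irak4. Tirap was at 18.8, 18.5 and 17.0 FPKM in control and 26.2, 36.3 and 35.6 in TBI+DEIX (log2 change 0.81, adjusted p 0.00453).

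Calls among brakes on the pathway went both ways. Of 14 tested, 4 rose and 1 fell in TBI+DEIX against control, beside 16.9% and 13.1% of all genes. In DEIX 1 rose and 1 fell, beside 4.52% and 2.72%, and in TBI 1 fell, beside 3.99% called in either direction. Irak3, an IRAK that blocks signalling, rose in TBI+DEIX (0.68, adjusted p 0.000609 by limma) and in DEIX (0.57, adjusted p 0.00758), from 18.0 to 19.1 FPKM in control to 29.5 to 31.9 and 26.3 to 31.1. Its call was lost on the TPM scale in TBI+DEIX and in DEIX. In TBI Irak3 was at 22.2 to 26.2 FPKM, also above control in all libraries, but was not called (0.37, adjusted p 0.0535 by limma). Cyld, a deubiquitinase, Pdlim2, which targets RELA for degradation, and Tollip, an inhibitor of IRAK1, rose in TBI+DEIX (0.51, 0.82 and 0.42), with the calls of Cyld and Tollip lost on the TPM scale, whether or not S100a8, S100a9 and Ngp were in its sum, and Sigirr, a decoy of the family, fell (-0.58, adjusted p 0.035, a call lost in 9 of 15 alternatives). Socs1, a suppressor of cytokine signalling, fell in TBI (-0.97, adjusted p 0.00321) and in DEIX (-0.83, adjusted p 0.00819) but was not called in TBI+DEIX (2.90, 3.11 and 2.89 FPKM against 3.30, 3.49 and 4.76 in control).

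Among co-receptor and trafficking genes calls went both ways. Of 14 tested, 1 rose and 3 fell in TBI+DEIX against control, beside 16.9% and 13.1% of all genes. In DEIX 1 rose, beside 4.52%, and in TBI 1 fell, beside 3.99% called in either direction. Lbp, which carries lipopolysaccharide to CD14, rose in TBI+DEIX (1.01, adjusted p 0.00181 by limma), from 37.3 to 42.2 FPKM in control to 76.3 to 93.8. It was the gene called in DEIX (0.64, adjusted p 0.0482, a call lost in 12 of 15 alternatives). In TBI Lbp was at 57.0 to 72.5 FPKM, also above control in all libraries, but was not called (0.65, adjusted p 0.0637 by limma). Ly86 and Cd180, whose products form a complex related to the TLR4 receptor on B cells and myeloid cells, fell in TBI+DEIX (-1.90, adjusted p 0.00364, and -1.34, adjusted p 0.0149). Without TBI+DEIX replicate 1 the changes were -1.33 and -0.80, and the Cd180 call was lost without control replicate 1 and with only the groups compared. Ly86 was at 47.7, 51.4 and 61.8 FPKM in control and 5.55, 18.4 and 23.1 in TBI+DEIX, lowest in replicate 1. Cd36, a scavenger receptor that works with TLR2, fell too (-1.45, adjusted p 0.0463), a call lost in 6 of 15 alternatives, among them without TBI+DEIX replicate 1 (-1.20, adjusted p 0.101 by limma). Lgmn, an endosomal protease, fell in TBI (-0.37, adjusted p 0.034, lost in 9 of 15). Unc93b1, which carries the endosomal receptors to their compartment and was chosen after its values were seen, ranged over 164 to 187 FPKM in control, 164 to 169 in DEIX, 124 to 133 in TBI and 113 to 168 in TBI+DEIX, and was called in no comparison.

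Of 11 transcription factors of the pathway, Rela and Cebpb rose and Irf5 fell in TBI+DEIX against control (0.31, 0.60 and -0.92), beside 16.9% of all genes higher and 13.1% lower, Relb fell in TBI (-0.46, adjusted p 0.0469 by limma, a call lost in 12 of 15 alternatives) and 0 were called in DEIX. Without TBI+DEIX replicate 1 the change of Irf5 was -0.63 and still called. The Rela call was lost in 7 of 15 alternatives and that of Cebpb in 6, among them without TBI+DEIX replicate 1 (0.44, adjusted p 0.071 by limma). Of 6 target cytokines tested, Tnf rose (0.84, adjusted p 0.00325) and Ccl4 fell (-0.83, adjusted p 0.0341) in TBI+DEIX, beside the same shares of all genes. Ccl4 fell in TBI (-1.17, adjusted p 0.0323) and 0 were called in DEIX. Tnf was at 7.75 to 8.50 FPKM in control, 10.1 to 13.8 in TBI, 8.67 to 13.9 in DEIX and 14.7 to 16.0 in TBI+DEIX. The TBI change of Tnf was 0.47 and not called (adjusted p 0.141 by limma). Ccl4 lost its call in 5 of 14 alternatives in TBI and in 6 of 14 in TBI+DEIX, among them without TBI+DEIX replicate 1 (-0.61, adjusted p 0.0808 by limma). Il1b, a main inflammatory product of this pathway, ranged over 70.3 to 82.9 FPKM in control, 19.6 to 45.4 in DEIX, 28.3 to 35.3 in TBI and 6.87 to 79.2 in TBI+DEIX, without a call.

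**Figure D4:**
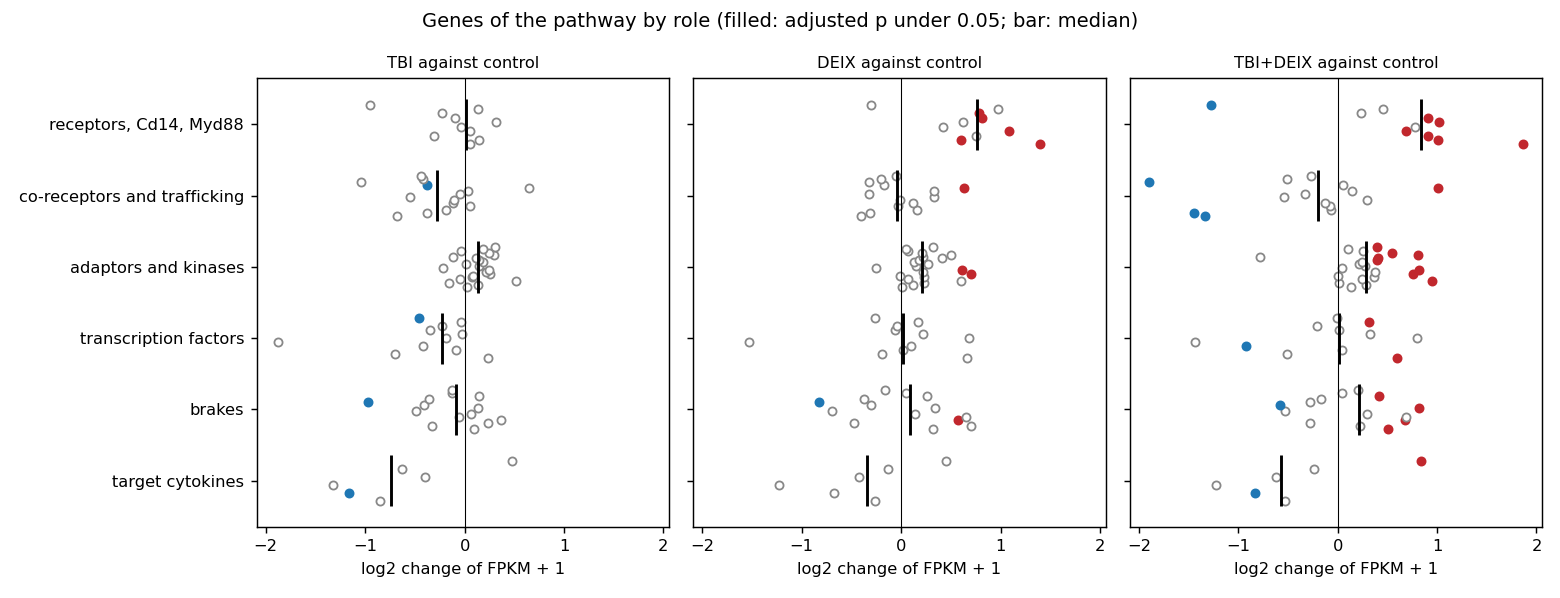
Log2 change of FPKM + 1 against control (x axis) for each tested gene, grouped by role (rows), in TBI, DEIX and TBI+DEIX; filled points were called at an adjusted p under 0.05 and black bars are medians. The receptors with Cd14 and Myd88 have medians of 0.012, 0.77 and 0.84, and the adaptors and kinases 0.14, 0.21 and 0.28.

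Of the other Toll-like receptor genes, Tlr5, the flagellin receptor, was at 4.64 to 6.42 FPKM in control, 5.23 to 9.39 in TBI, 4.33 to 9.23 in DEIX and 0.499 to 12.1 in TBI+DEIX, where replicate 1 was the lowest. Tlr3, which binds double-stranded RNA, lay between 0.216 and 2.38 FPKM, and Tlr11 was not tested, with a highest value of 1.49. Ly96, the subunit that TLR4 needs to bind lipopolysaccharide, was also low in TBI+DEIX replicate 1, at 0.705 FPKM beside 10.3 and 9.32, and was chosen after its values were seen.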

How the data were processed

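RNA from whole bone marrow was measured in 12 libraries, made with a directional MGI kit per the labels' protocols. The submitters' processing notes name STAR 2.6, Cufflinks 2.2.1 and the mm10 build, without saying what each did. The authors deposited FPKM values per gene and library, and no counts. The annotation they used is not given in the sources used here. All 21853 identifiers matched GENCODE vM21 on GRCm38, which gave symbols and 1-based coordinates.

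Genes with at least 1 FPKM in at least 3 libraries (10994) entered the test on the log2(FPKM + 1) scale, on which changes of low genes come out too small, with limma 3.58.1 in R 4.3.3 (lmFit, eBayes with trend) in 1 model of 4 group means, after a check on simulated data. The call threshold was 0.05 after Benjamini-Hochberg adjustment over all genes tested. The model assumes 1 spread for all groups, but the root mean square SD of log2 values was 0.14 in control and 0.418 in TBI+DEIX. Reads per library were estimated from GENCODE transcript lengths less 200 bases, and reads per gene of the 10 from coding lengths less 200 bases. Promoter sequences are from RefSeq, GRCm38.p6.

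The genes, lists and tests were chosen with earlier results of these data known, and give no independent support. Named genes were all 10 members; from each pathway list called genes (at most the 5 smallest adjusted p a comparison) and the 3 of highest mean could be named, not all of which were; and the 2 most similar genes of each member, with exceptions marked. T and NK cell, conventional dendritic cell and erythroid marker lists were also prepared: against control 4, 0 and 0 of their 11, 9 and 10 tested genes were called in TBI, 2, 0 and 0 in DEIX and 6, 3 and 6 in TBI+DEIX, all lower, beside 3.99% of all genes called in either direction in TBI and 2.72% and 13.1% called lower in DEIX and TBI+DEIX. Alternatives were another pseudocount (0.1), no filter or a mean of at least 5 FPKM, TPM and median-ratio scaling, only the groups compared, array weights, a replicate block and leaving out each library.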

Additional observations from a re-analysis of the deposited data

Results flagged for a closer look

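The interaction, which asks whether the DEIX difference was the same with and without irradiation, was called for 3 genes of the lists used here, and for none of the 10 receptor, co-receptor and adaptor genes. Socs1, a brake on cytokine signalling, had an interaction of 1.52 (SE 0.20, adjusted p 0.0142 by limma): it was at 1.22, 1.72 and 1.47 FPKM in TBI and 2.90, 3.11 and 2.89 in TBI+DEIX, but at 3.30, 3.49 and 4.76 in control and 2.05, 1.70 and 1.42 in DEIX. The complement genes C1qa and C1qb, among the macrophage markers, had interactions of 2.52 (SE 0.33) and 2.43 (SE 0.29), each with an adjusted p of 0.0142 by limma. C1qa was at 38.2, 40.4 and 36.1 FPKM in control, 12.5, 9.23 and 12.8 in DEIX, 20.3, 19.4 and 12.9 in TBI and 22.3, 43.9 and 33.7 in TBI+DEIX. C1qb was at 31.9 to 37.3 FPKM in control, 10.6 to 12.98 in DEIX, 12.8 to 21.4 in TBI and 27.1 to 45.0 in TBI+DEIX. Socs1 and C1qb passed under all alternatives in which they were tested, and C1qa was no longer called when control replicate 1 or 3, or TBI replicate 2, was left out. The causes were not tested.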

How the results depend on the processing

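The called changes of the 10 genes and of the pathway genes kept their direction in all alternatives run for them. Changes that were not called, and the interactions of the 10 genes, were not all followed over the alternatives. In TBI against control 0 of the 10 genes were called, 1 with only the groups compared (beside 12.9% of all genes) and 3 with array weights. In DEIX against control 5 were called, 2 on the TPM scale (beside 2.57% of all genes) and 8 with only the groups compared (beside 18.7%). The count was 9 with array weights and 1 to 5 when 1 library was left out. It was 3, beside 3.71% of all genes, on the TPM scale without S100a8, S100a9 and Ngp in the sum. That scale was added after seeing the data, since the deposited table lists those genes at 0 in some libraries. In TBI+DEIX against control 7 were called and 6 to 9 over the alternatives, beside 30.0% of all genes in the main fit and 16.2% on the TPM scale. In TBI+DEIX against TBI 4 were called, 2 on the TPM scale (beside 1.43% of all genes) and 0 with only the groups compared (beside 0%). The count was 9 with array weights and 0 to 8 when 1 library was left out. In the interaction 0 were called and 1 with array weights. With array weights 63.8%, 47.7% and 62.5% of all genes were called in TBI, DEIX and TBI+DEIX, each against control. In TBI+DEIX against TBI and in the interaction 50.3% and 10.4% were called with them. These weights did not converge and gave control replicate 2 a weight of 97.5 and TBI+DEIX replicate 1 a weight of 0.0498.

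Over all genes, TBI against control called 439, and from 134 (mean of at least 5 FPKM) to 7017 (array weights). DEIX against control called 796, and from 146 (without control replicate 2) to 5249 (array weights). TBI+DEIX against control called 3299, and from 1785 (TPM scale) to 6866 (array weights). TBI+DEIX against TBI called 891, and from 0 (only the groups compared) to 5532 (array weights). The interaction called 22, and from 4 (without TBI replicate 2) to 1148 (array weights). The TPM scale moved the share of higher genes among those called from 22.3% to 9.49% in TBI against control, from 56.2% to 30.6% in TBI+DEIX against control and from 57.9% to 34.4% in TBI+DEIX against TBI.

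Libraries of the same replicate number did not deviate together: 3 of 18 such pairs had a correlation over 0.1 (from -0.447 to 0.242), and 1 of 12 libraries was most like its own number. With a replicate block 0, 5, 6, 4 and 0 of the 10 genes were called in the comparisons in the order above. The shares of all genes called were 3.44%, 5.82%, 27.3%, 4.31% and 0.182%, with 474 genes in TBI+DEIX against TBI. The cause of these movements was not tested. By their thinnest library, depth limits Tlr9 and Cd14 most. By median estimated reads over the libraries, Cd14 (311) and Tlr1 (640) are the lowest, before Tlr9 (887).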
